A study of Mus musculus with 12 samples.

Results

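Small noncoding RNA genes were examined in cultured mouse aortic smooth muscle cells held in 0.3 or 4.5 g/l glucose. The members were the genes whose symbol in the platform annotation starts with Snord, Snora, Scarna, Rnu or Rny, taken from probe sets that name a single gene. There were 84 such genes among the 22180 genes measured, namely 47 box C/D genes (Snord), 26 H/ACA genes (Snora), 5 Cajal body genes (Scarna), 4 small nuclear or U3-type genes (Rnu) and 2 Y RNA genes (Rny). The cells came from C57BL/6J mice, were used at passage 3 to 4 and were kept in DMEM with 10% fetal calf serum. One group received 0.3 g/l glucose (given as 1.7 mM in the study's design) and the other 4.5 g/l (25 mM), with 6 arrays in each group and no genetic change in either. The labels give the time in these media both as 14 days and as 1 week, and do not say whether arrays of a group came from separate cultures or animals. The p-values below therefore measure the spread between these arrays, which may be technical.

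Box C/D RNAs guide the methylation of ribose in ribosomal RNA, and H/ACA RNAs guide the change of uridine to pseudouridine. A few of either kind are needed instead for cutting the ribosomal RNA precursor, and the Cajal body RNAs guide the same changes on spliceosomal RNAs. In mammals most of them are not transcribed on their own: they lie in introns of a host gene, are cut out of its spliced intron, and are stabilised by a shared set of proteins. The spliced host RNA and the small RNA are then degraded separately. Many hosts are ribosomal protein genes or long noncoding RNA genes whose transcripts start with a pyrimidine run (a TOP start).

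All values are log2 robust multi-array average (RMA) signals, and a difference is 4.5 minus 0.3 g/l. A gene was called at an adjusted p under 0.05 in limma, fitted across all 22180 genes with Benjamini-Hochberg adjustment. Such probe sets can also bind the unspliced host transcript, and the protocols in the labels do not say how far RNAs of 48 to 248 bases, the lengths of the members in RefSeq, were kept at extraction. A value below is thus the signal of a small RNA's probe set and not proof of the mature small RNA. In such bulk cultures, fewer cells of a type and less RNA per cell cannot be told apart.

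The 5 smooth muscle markers (Acta2, Tagln, Myh11, Cnn1, Smtn) were all higher at 4.5 g/l, with a mean of 12.2 to 12.5 per array against 10.2 to 11.8. Of 6 endothelial markers only Emcn was called, lower, and the mean of the list ran from 7.69 to 8.39 at 4.5 g/l and from 7.95 to 8.45 at 0.3 g/l. Cdh5 and Emcn, the brightest of these markers, were at mean signals of 10.5 to 11.7 in both groups. Pecam1 was at 9.74 and 9.49 in 0.3 and 4.5 g/l. Tek (5.93 and 5.45), Kdr (5.52 and 5.41) and Vwf (6.04 and 6.01) were much dimmer. Without 0.3 g/l replicate 4, Cdh5 (-0.75), Tek (-0.66) and Emcn (-0.47) were all called lower (limma, adjusted p up to 0.015). In replicates 4 to 6 without that array 5 of the 6 were lower, with Cdh5 at -1.24, and in replicates 1 to 3 only Tek was (-0.45). No fibroblast or macrophage marker was called over the 12 arrays. Without 0.3 g/l replicate 4 the fibroblast markers Pdgfra and Col1a1 were higher, both by 0.44. Dcn and Lum were higher in replicates 1 to 3 (0.36 and 0.67) and lower in replicates 4 to 6 without that array (-0.74 and -0.60). The macrophage and leukocyte marker Ptprc was near the floor at 3.29 and 3.36, and Adgre1 was at 3.87 and 3.99. The other macrophage markers were brighter, with Csf1r at 5.21 and 5.11, Lyz2 at 5.85 and 5.56 and Cd68 at 7.33 and 7.32. The part of these other cells in the results was not tested. The array of 0.3 g/l replicate 4 stood apart: it correlated best with an array of the other group (0.985, against 0.982 within its own) and had the highest smooth muscle marker mean of its group. Arrays numbered 4 to 6 at 4.5 g/l had a lower endothelial marker mean (7.69 to 7.74) than those numbered 1 to 3 (8.28 to 8.39). Results are given with and without 0.3 g/l replicate 4 and within each range of numbers where they change.

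The start sequences of 5 host genes are shown because these hosts fell while the small RNAs inside them did not fall as far. Each is 30 bases from RefSeq (build GRCm38.p6), 15 on either side of the annotated start, on the strand of the gene, with a run of C followed by at least 5 C or T in capitals where there is one.
Snhg12: ggccgttctcagtCCTTTCTCgcttcatcc
2410006H16Rik: tcacgcgccgtCTTTCTCTgcggccatcat
1110038B12Rik: gggcggcacacgggtCTCTTTgtgcacccg
Snhg1: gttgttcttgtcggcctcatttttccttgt
Gnl3: cgtaaatccaacctgtggccgccaggcgag
They lie at chr4:132308663-132308692 on the plus strand, chr11:62602862-62602891 on the plus strand, chr17:34952454-34952483 on the minus strand, chr19:8723472-8723501 on the plus strand and chr14:31019117-31019146 on the minus strand. Among 27025 genes with a start sequence, 25.5% held such a run within 15 bases of a start (22.5% of all start sequences), and 12 of 37 hosts did (32.4%). Of the 15 hosts called lower that had a start sequence, 3 held the run, and they are the first 3 above. Other hosts that fell further than a small RNA inside them, such as Kansl2, Eif5 and 2410002F23Rik, held none and are not shown. On the other strand, which serves as a comparison, 25.5% of start sequences and 6 of 37 hosts held one. A match or its absence describes the letters of these windows only, and absence does not show that a transcript lacks a TOP start.

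Among the box C/D genes, 8 of 47 were called lower at 4.5 g/l (17.0%) and none was called higher. Over all genes 15.5% were called, 8.52% lower and 7.01% higher. At an unadjusted p under 0.05 the limma fit had 15 box C/D genes lower and 1 higher. Over all 22180 genes, 3362 were lower and 2750 higher at that p. The median difference of the 47 genes was -0.13, against -0.01 over all genes, and 38 of the 47 had a difference below 0. For the H/ACA genes the median was 0.02, with 12 of 26 below 0 and 14 above, and 1 called higher (3.85%). No H/ACA gene was called lower in limma, where 3 had an unadjusted p under 0.05. All members together had 10 calls, 11.9% of 84, which was below the share over all genes.

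**Figure D1:**
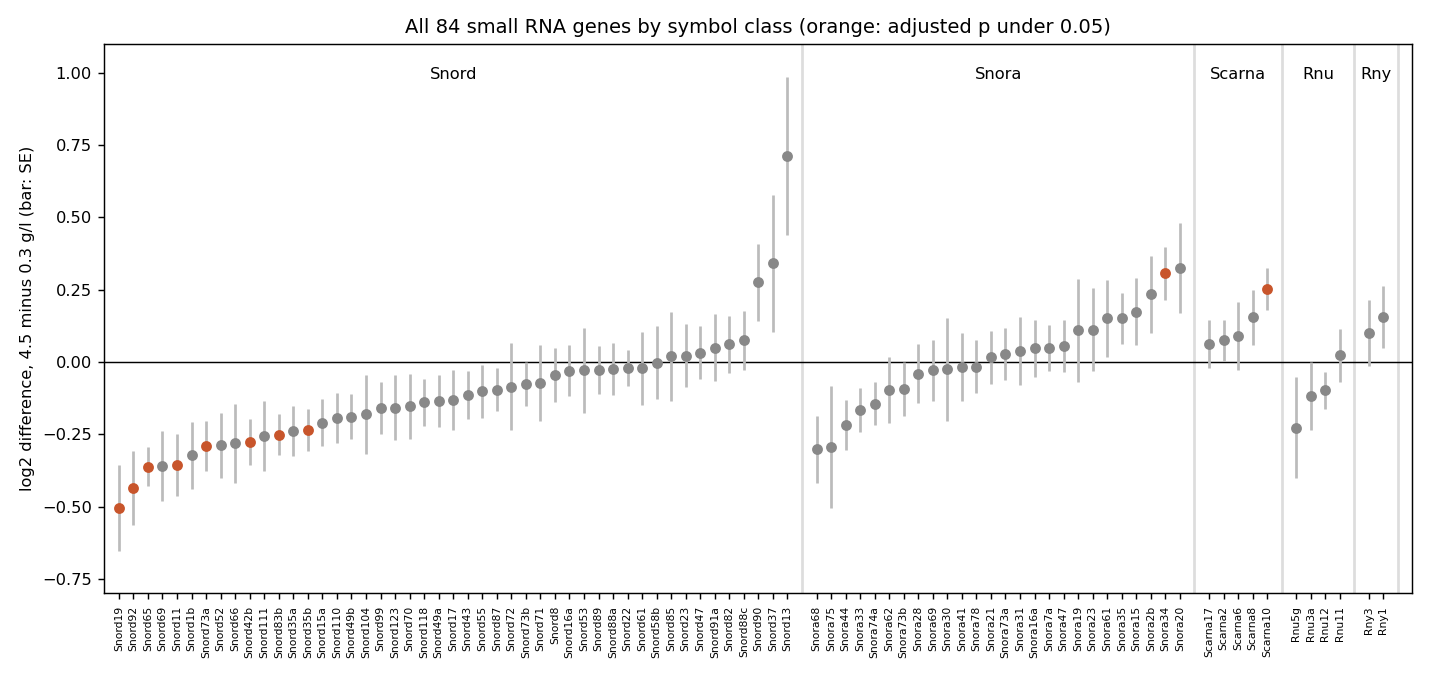
Log2 difference (4.5 minus 0.3 g/l) of every member by class, with a point for each gene, sorted within its class, and its SE as a bar; orange points were called in limma at an adjusted p under 0.05. Of the box C/D points 38 of 47 lie below 0, and of the H/ACA points 12 of 26; Snord13 is the highest point, at 0.71.

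Snord65, a box C/D RNA in an intron of the long noncoding RNA gene 2410006H16Rik, was the only member whose groups did not overlap. Its 6 values at 0.3 g/l were 9.36, 9.32, 9.40, 9.39, 9.44 and 9.60 for replicates 1 to 6, and those at 4.5 g/l were 9.17, 9.19, 9.07, 8.89, 8.98 and 9.04. Every 4.5 g/l array lay below every 0.3 g/l array, and the gap was widest among arrays numbered 4 to 6. It fell by 0.36 ± 0.07 (SE), or 1.28-fold (limma, adjusted p = 0.0031). One gene of 84 without overlap compares with 6.40% of all genes in either direction, with 2.90% lower and 3.49% higher. The call held with any array left out, with an adjusted p from 0.0018 to 0.0091 in limma.

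The other 7 box C/D genes that fell did so by 0.23 to 0.51, and the ranges of their groups overlapped. Snord19, in an intron of Gnl3, a nucleolar GTP-binding protein gene, read 6.19, 5.60, 6.02, 5.43, 6.15 and 6.05 at 0.3 g/l. At 4.5 g/l it read 5.75, 5.16, 5.14, 5.65, 5.22 and 5.47. The first group lay above the whole second group apart from 0.3 g/l replicates 2 and 4, which lay inside it, and the fall was 0.51 ± 0.15 (SE), or 1.42-fold (limma, adjusted p = 0.033).
Snord92, in an intron of Wdr43, ran from 3.96 to 4.55 at 0.3 g/l and from 3.51 to 4.15 at 4.5 g/l. It fell by 0.44 ± 0.13 (SE; limma, adjusted p = 0.033). Its mean of 4.13 lay in the dimmest 25% of genes, below 4.20, together with those of Snord85, Snord90 and Rnu5g.
Snord42b, within Rpl23a, which encodes a protein of the large ribosomal subunit, ran from 9.26 to 9.55 and from 8.93 to 9.38. Of the 4.5 g/l arrays, replicates 1 and 2 lay within the range of the other group and the rest below it, and the fall was 0.28 ± 0.08 (SE; limma, adjusted p = 0.030). Snord83b, within Rpl3, another large subunit gene, ran from 8.37 to 8.57 and from 8.03 to 8.38, and it fell by 0.25 ± 0.07 (SE; limma, adjusted p = 0.026).

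Snord73a (within Rps3a1), Snord11 (within Nop58) and Snord35b completed the group, and they are named here after their values were seen. Snord11 ran from 8.33 to 8.61 at 0.3 g/l and from 7.74 to 8.46 at 4.5 g/l, a fall of 0.36 ± 0.11 (SE). Snord73a fell by 0.29 ± 0.09 and Snord35b by 0.23 ± 0.07 (SE; limma, adjusted p from 0.037 to 0.044 for the 3 genes). The a and b forms of Snord73 and Snord35 resemble each other, so signal may be split between them.

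**Figure D2:**
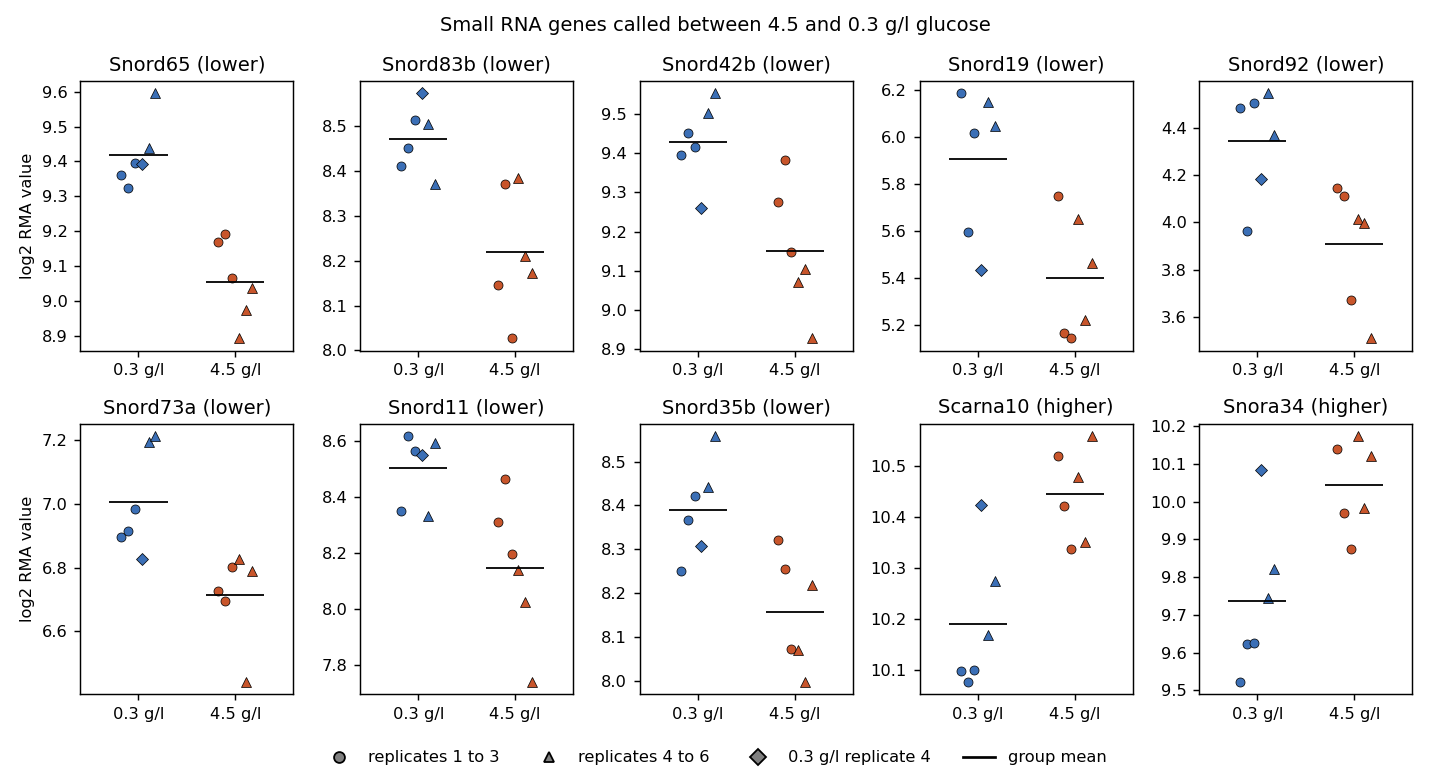
Log2 signal of each called member in every array, with 0.3 and 4.5 g/l side by side, a point for each of 6 arrays per group and a bar at the group mean; a diamond marks 0.3 g/l replicate 4. The 2 groups are apart for Snord65 and overlap for the other 9 genes, and 0.3 g/l replicate 4 is the highest of its group for Scarna10 and Snora34.

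The calls other than that of Snord65 lay near the threshold. Each of the other 7 kept its call in 3 to 6 of the 12 fits that left out a single array, and their adjusted p reached 0.10 in limma (Snord35b). Their differences kept their sign in those fits and stayed within 0.77 to 1.19 times the value over 12 arrays. Leaving out 0.3 g/l replicate 3, or 4.5 g/l replicate 5 or 6, left 1 member called lower (1.19% of 84, where 5.98%, 6.47% and 6.68% of all genes were lower). Leaving out 0.3 g/l replicate 5 or 6, or 4.5 g/l replicate 3, left 2 (2.38%, against 5.87%, 6.15% and 7.53% of all genes). Leaving out 0.3 g/l replicate 1 or 2, or 4.5 g/l replicate 4, left 5 (5.95%, against 5.92%, 6.58% and 6.39%). Without 4.5 g/l replicate 1 or 2 there were 9 and 8 (10.7% and 9.52%, against 7.20% and 7.80%), and without 0.3 g/l replicate 4 there were 11. With that array out, 23.9% of all genes were called, 13.6% lower and 10.3% higher. The 3 genes added were Snord35a, Snord69 and Snord1b, at -0.26, -0.41 and -0.37.

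The box C/D shift differed in size between the ranges of array numbers. In replicates 1 to 3 no box C/D gene was called in limma, 4 had an unadjusted p under 0.05 in the lower direction and 3 in the higher, and the median difference was -0.01. In those arrays 13.1% of all genes were called, 7.16% lower and 5.92% higher. At an unadjusted p under 0.05, limma had 3154 of all 22180 genes lower and 2728 higher there. In replicates 4 to 6 without 0.3 g/l replicate 4, 14 of the 47 genes were lower (29.8%), 1 was higher (Snord13) and the median was -0.31. In that fit 15.5% of all genes were called, 8.94% lower and 6.55% higher. With that array kept, replicates 4 to 6 had no member called in limma and 22 members lower and 3 higher at an unadjusted p under 0.05. Of all genes 0.135% were then called, 0.0406% lower and 0.0947% higher, and the box C/D median was -0.24. At an unadjusted p under 0.05, that fit had 1953 of all 22180 genes lower and 1746 higher. At 0.3 g/l the mean box C/D deviation per array was at most 0.02 among the first 3 arrays and at least 0.04 among the last 3, where it reached 0.19. At 4.5 g/l the first 3 arrays ran from -0.10 to 0.08 and the last 3 from -0.16 to -0.07. The endothelial markers differed most between the groups in the same arrays as the box C/D genes, those numbered 4 to 6, and their part in this was not tested. The difference between the ranges was not tested, and the labels name no batch. The largest falls in the second range, chosen after their values were seen, were those of Snord69 (-0.74), Snord66 (-0.70), Snord1b (-0.69) and Snord52 (-0.65).

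**Figure D3:**
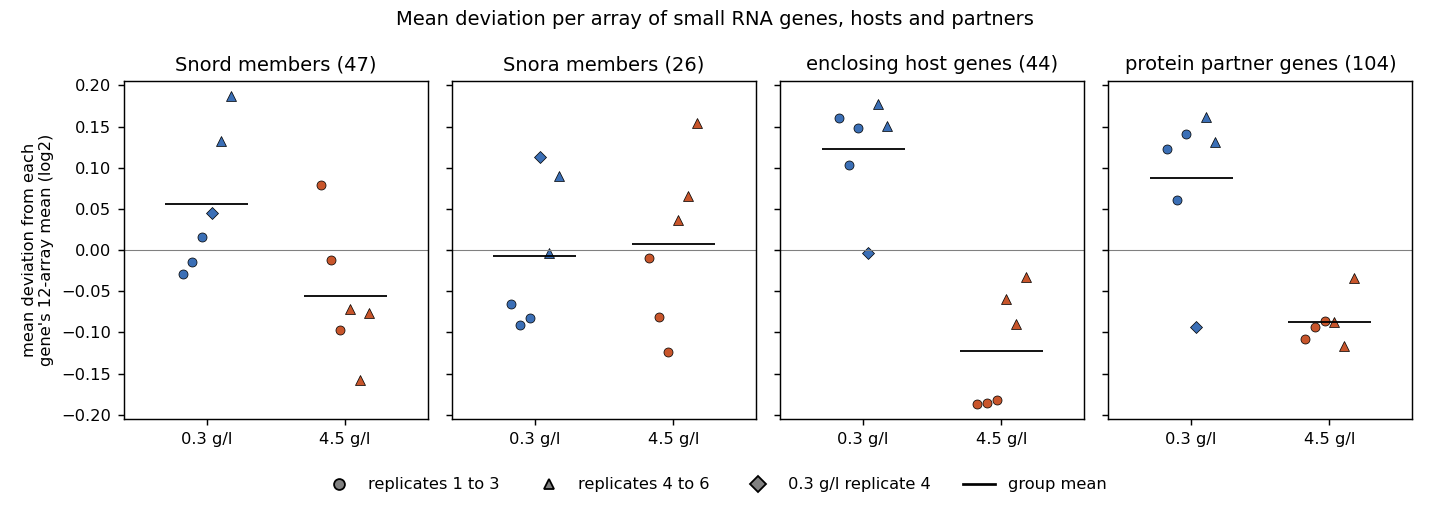
Mean deviation from each gene's overall mean (log2) for box C/D genes, H/ACA genes, the host genes and the protein partners, with a point for each array, a bar at the group mean and marks for the ranges of replicate numbers. Box C/D genes reach 0.19 at 0.3 g/l and -0.16 at 4.5 g/l in replicates 4 to 6, and the hosts are lower at 4.5 g/l than in every 0.3 g/l array, with 0.3 g/l replicate 4 nearest to them at -0.00.

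Snora34 and Scarna10 were the members that rose. Snora34, an H/ACA RNA within Kansl2, a gene for a subunit of a chromatin acetyltransferase complex, read 9.52, 9.62, 9.63, 10.08, 9.74 and 9.82 at 0.3 g/l. At 4.5 g/l it read 10.14, 9.97, 9.87, 10.17, 9.98 and 10.12. Apart from 0.3 g/l replicate 4, every low-glucose array lay below every high-glucose one, and the rise was 0.31 ± 0.09 (SE), or 1.24-fold (limma, adjusted p = 0.037). Scarna10, a Cajal body RNA within Ncapd2, a condensin subunit gene, read 10.10, 10.08, 10.10, 10.42, 10.17 and 10.28 at 0.3 g/l and 10.52, 10.42, 10.34, 10.48, 10.35 and 10.56 at 4.5 g/l. It rose by 0.25 ± 0.07 (SE), or 1.19-fold (limma, adjusted p = 0.029). Without 0.3 g/l replicate 4 both rose further, by 0.38 and 0.30, and both were also called in replicates 1 to 3 alone (0.40 and 0.33; limma, adjusted p = 0.027 and 0.028). Leaving out any of 0.3 g/l replicates 1, 2, 3 or 5, or of 4.5 g/l replicates 1, 4 or 6, ended both calls, and leaving out 0.3 g/l replicate 6 or 4.5 g/l replicate 5 ended that of Snora34, with adjusted p up to 0.089 in limma. All 5 Scarna genes had a difference above 0, from 0.06 to 0.25.

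Most H/ACA genes were not called, including those with a role in cutting ribosomal RNA. Snora73a and Snora73b, both within Snhg3 and needed for the small subunit RNA, differed by 0.03 ± 0.09 and -0.09 ± 0.09 (SE), and as near-identical copies they may share signal. Snora33, the brightest H/ACA probe set of the table within Rps12, was at 13.2 and 13.0 (difference -0.16 ± 0.08), and Snora21 within Rpl23 at 9.63 and 9.65. The mean H/ACA deviation of an array was between -0.12 and -0.01 for numbers 1 to 3 of either group. For numbers 4 to 6 it was between 0.04 and 0.15 at 4.5 g/l, and 0.3 g/l replicates 4 and 6 were at 0.11 and 0.09 with replicate 5 at -0.00. This difference by array number was not tested. Without 0.3 g/l replicate 4, Snora61 was also called higher (0.27; limma, adjusted p = 0.043).

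Snord13 had the largest difference of any member, with widely spread groups. This box C/D-type RNA is known to guide the acetylation of a cytidine in the small subunit RNA by the enzyme Nat10, and it lies in no other gene here. Its values were 7.84, 7.64, 7.84, 8.80, 7.92 and 8.58 at 0.3 g/l and 8.59, 7.86, 8.56, 9.01, 9.29 and 9.59 at 4.5 g/l. The 3 highest arrays were 4.5 g/l replicates 4 to 6, and 0.3 g/l replicates 4 and 6 stood above the other 4 of their group. The difference of 0.71 ± 0.27 (SE) did not pass the threshold (limma, adjusted p = 0.098), but without 0.3 g/l replicate 4 it was 0.85 (adjusted p = 0.036) and without 4.5 g/l replicate 2 it was 0.90 (adjusted p = 0.023). With the number range as a block the adjusted p was 0.011 in limma. No other single array left out brought the difference past the threshold. In replicates 1 to 3 alone the difference was 0.56 (limma, adjusted p = 0.11). In replicates 4 to 6 it was 0.86 (limma, adjusted p = 0.165), and 1.05 without 0.3 g/l replicate 4 (limma, adjusted p = 0.036). Nat10 itself, named for this role after its value was seen, fell by 0.39 ± 0.08 (SE; limma, adjusted p = 0.0048).

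Other members with roles of their own were not called. Snord118 (U8), needed for the large subunit RNA, was at 5.70 ± 0.13 and 5.56 ± 0.14 (SD, n = 6 each). Rnu3a (U3), which directs the first cuts toward the small subunit RNA, was at 6.62 ± 0.26 and 6.50 ± 0.17 (SD). Snord22 (U22), which also serves the small subunit RNA, was at 11.9 in both groups, a difference of -0.02 ± 0.06 (SE). Snord82 within Ncl and Snord99 within Snhg12, the other bright box C/D genes, differed by 0.06 ± 0.10 and -0.16 ± 0.09 (SE). Snord35a, within the ribosomal protein gene Rpl13a whose intronic RNAs are known from metabolic stress, ran from 10.3 to 10.6 at 0.3 g/l and from 9.93 to 10.4 at 4.5 g/l. Its difference of -0.24 ± 0.09 (SE) missed the threshold (limma, adjusted p = 0.079), and it was called without 0.3 g/l replicate 4 (adjusted p = 0.048).

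The small nuclear RNA genes Rnu11 and Rnu12, parts of the minor spliceosome, differed by 0.02 ± 0.09 and -0.10 ± 0.06 (SE). Rnu5g, a gene of the U5 type, was close to the floor at 1.67 and 1.44, so that nothing can be read from it. Rny1 and Rny3, the Y RNAs bound by the Ro60 and La proteins, differed by 0.16 ± 0.11 and 0.10 ± 0.11 (SE). In Rny1, 0.3 g/l replicate 4 was the highest of all 12 arrays at 12.0, while the other 5 arrays at 0.3 g/l ran from 11.4 to 11.6. None of the 6 Rnu and Rny genes was called in limma, and none had an unadjusted p under 0.05.

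A larger share of the host genes than of the small RNAs was called. RefSeq placed 69 of the 84 members inside exactly 1 other gene, 6 inside more than 1 and 9 inside none, and 58 members had their only enclosing gene measured. The table gives no strand for the small RNAs, so an enclosing gene is called a host here without a check of the strand. Of the 44 hosts, 18 fell (40.9%, against 8.52% of all genes), 3 rose (6.82%, near the 7.01% of all genes) and 23 were not called. The groups did not overlap for 14 hosts (31.8%, against 6.40% of all genes). Hosts called lower numbered 18 to 20 when any array was left out, 19 in replicates 1 to 3 and 13 in replicates 4 to 6 without 0.3 g/l replicate 4. The share of all genes called lower was 5.87% to 13.6%, 7.16% and 8.94% in these fits.

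Snhg12, a noncoding host of 4 measured small RNAs, had the largest fall of the 44 hosts. It read 8.46, 7.99, 7.90, 6.83, 8.12 and 8.18 at 0.3 g/l and 6.16, 6.36, 6.37, 6.42, 6.37 and 6.60 at 4.5 g/l. The groups did not overlap, and 0.3 g/l replicate 4 lay closest to the high-glucose arrays. The fall was 1.53 ± 0.21 (SE), or 2.89-fold (limma, adjusted p = 0.00041), and without that array Snhg12 fell by 1.75. The noncoding host 2410006H16Rik read 10.4 to 11.3 at 0.3 g/l and 9.55 to 9.95 at 4.5 g/l, a 2.31-fold fall (limma, adjusted p = 0.00012). Gnl3 fell 1.87-fold, 1110038B12Rik 1.71-fold and Snhg1 1.43-fold, and the last 2 had groups that did not overlap.

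**Figure D4:**
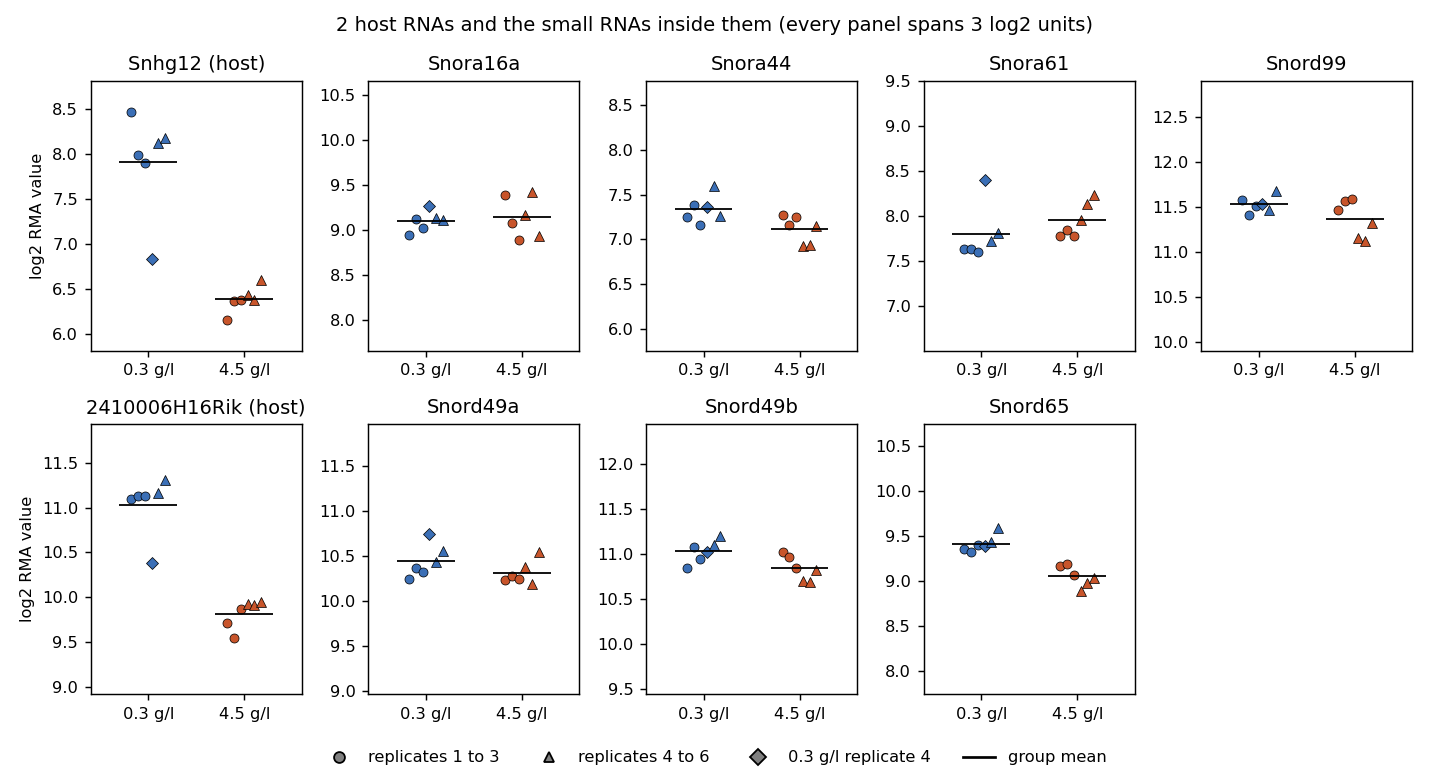
Log2 signal of the hosts Snhg12 and 2410006H16Rik and of the small RNAs inside them in every array, with a point for each array and a bar at the group mean; every panel spans 3 log2 units. The hosts drop by 1.53 and 1.21, while Snord65 drops by 0.36 and Snord99 differs by -0.16.

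Each small RNA was then set against its own host by the log2 ratio of their signals in the same array. Only the shift of this ratio between groups is given, since levels of different probe sets cannot be compared. The ratio rose at 4.5 g/l in 15 of 58 pairs and fell in none (limma over the 58 pairs; 21 rose and 0 fell at an unadjusted p under 0.05), and the 15 pairs came from 9 hosts, all called lower. The comparison was added after the data had been seen. Within Snhg12 the shift was 1.68 ± 0.29 (SE) for Snora61, 1.58 ± 0.25 for Snora16a, 1.37 ± 0.22 for Snord99 and 1.32 ± 0.22 for Snora44 (limma, adjusted p up to 0.00021). None of these 4 small RNAs was itself called, and Snora61 stood at 7.80 and 7.95 while its host fell. Within 2410006H16Rik the shift was 1.08 ± 0.18 (SE) for Snord49a, 1.02 ± 0.16 for Snord49b and 0.85 ± 0.16 for Snord65, although Snord65 fell too. Snord49a and Snord49b are similar in sequence and may share signal, and members of 1 host share its values.

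Smaller shifts were seen in other hosts. Within Kansl2 the ratio rose by 0.69 ± 0.16 (SE) for Snora34 and 0.62 ± 0.15 for Snora2b. Kansl2 fell by 0.39 ± 0.10 (SE; limma, adjusted p = 0.018) at its brighter probe set, and its other probe set was not called (-0.34; limma, adjusted p = 0.081). Snora34 and its host were thus called in opposite directions only at the brighter probe set of Kansl2. Of the hosts of the 15 pairs, only Kansl2 had another probe set. Against the mean of its probe sets the ratio rose by 0.67 for Snora34 and 0.60 for Snora2b (limma, adjusted p = 0.0049 and 0.0039). The ratio of Snord69 to Gnl3 rose by 0.54, that of Snord22 to Snhg1 by 0.50, that of Snord52 to 1110038B12Rik by 0.48, that of Snora7a to Rpl32 by 0.47 and that of Snora28 to Eif5 by 0.42. Those of Snora16a, Snora44, Snora61, Snord99, Snora28, Snora2b, Snora34, Snora7a, Snord22, Snord49a, Snord49b, Snord65 and Snord52 held with any array left out. The ratio of Snord69 held in 8 of 12 such fits and that of Snord88c to 2410002F23Rik in 4.

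**Figure D5:**
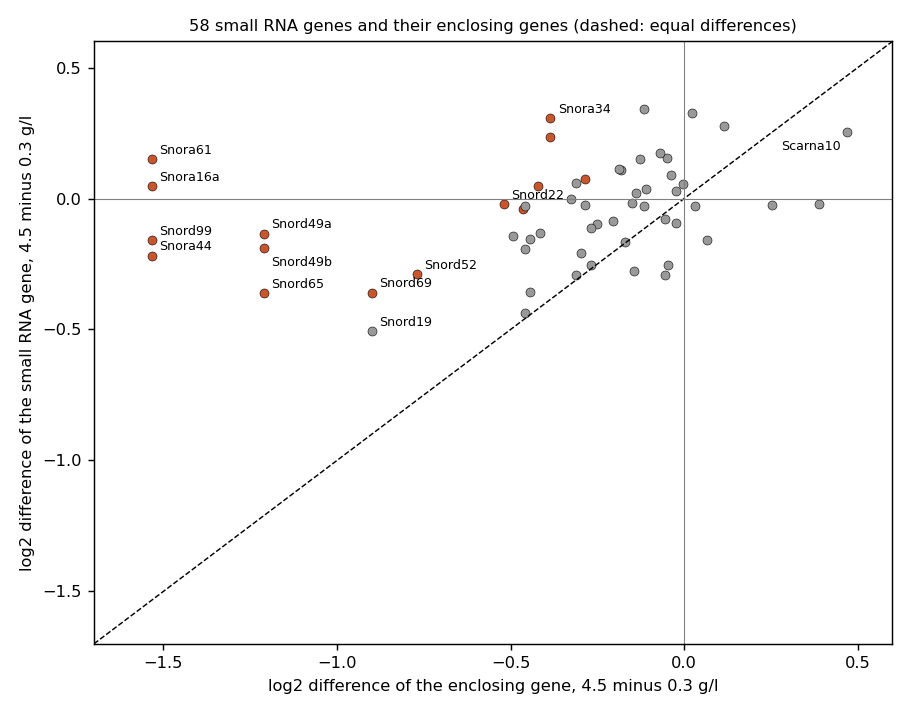
Log2 difference (4.5 minus 0.3 g/l) of each of 58 small RNAs on the vertical axis against that of its host on the horizontal axis, with a dashed line where the 2 are equal; orange points are pairs whose ratio rose in limma. The hosts reach -1.53 while their small RNAs stay between -0.51 and 0.34, and the 4 small RNAs of Snhg12 lie farthest to the left.

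Without 0.3 g/l replicate 4 the ratio rose in 24 pairs and fell in 2, and in replicates 1 to 3 it rose in 24 and fell in none. In replicates 4 to 6 it was called in no pair by limma with that array (8 rose and 4 fell at an unadjusted p under 0.05), and without it 14 rose and 4 fell. In 5 pairs the small RNA and its host both fell: Snord65, Snord83b, Snord19, Snord92 and Snord11. For Snord83b this rests on the brightest probe set of Rpl3. The dimmer probe sets of Rpl3 differed by 0.08 and 0.02 and were not called (limma, adjusted p = 0.78 and 0.95). Scarna10 and Ncapd2 both rose, the latter by 0.47 ± 0.08 (SE), or 1.39-fold (limma, adjusted p = 0.0019). In 24 pairs the host fell and the small RNA was not called, and the sign of the 2 differences was the same in 36 of 58 pairs.

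Genes for the proteins that bind box C/D RNAs were lower in all 3 cases measured. Nop56 and Nop58, which form the core of the particle and are hosts themselves, fell by 0.46 ± 0.06 and 0.44 ± 0.08 (SE). Snu13, which binds the RNA's turn motif, fell by 0.18 ± 0.05 (SE; limma, adjusted p from 0.00033 to 0.034 for the 3 genes). The dimmer probe sets of Nop56 differed by 0.24 and 0.0045 and were not called (limma, adjusted p = 0.16 and 0.99). Of 4 H/ACA protein genes, Nhp2 fell by 0.48 ± 0.12 and the pseudouridine synthase gene Dkc1 by 0.32 ± 0.09 (SE; limma, adjusted p = 0.019 and 0.026). Of 14 genes for the assembly and transport of the particles 6 fell (42.9%, against 8.52% of all genes) and none rose, with Pih1d1 at -0.31, Nufip1 at -0.46 and Nolc1 at -0.39.

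Ribosomal RNA processing genes, with which U3 works, fell in 21 of 29 cases (72.4%, against 8.52% of all genes) and rose in none. Their median was -0.38 against -0.01 for all genes. Imp3, Imp4 and Wdr43, parts of the small subunit processome, fell by 0.51 ± 0.08, 0.45 ± 0.08 and 0.46 ± 0.08 (SE; limma, adjusted p up to 0.0016). Of 14 RNA polymerase I genes 6 fell (42.9%, against 8.52%) and none rose, led by Polr1c (-0.35), Twistnb (-0.36) and the large subunit gene Polr1a (-0.34). Of 35 genes for small nuclear particle proteins 2 fell (5.71%, against 8.52% of all genes), Gemin5 and Lsm4, and Lsm6 rose by 0.27. Without 0.3 g/l replicate 4, 8 of the 35 were lower and 2 higher, where 13.6% and 10.3% of all genes were. Of 6 partners of Y RNAs only Ncl, nucleolin, was called, with a fall of 0.31 ± 0.08 (SE), while Ro60 differed by 0.18 ± 0.07 (SE). In all, 40 of 104 partner genes were lower (38.5%, against 8.52% of all genes) and 1 was higher (0.962%, against 7.01%). The count of lower genes was 26 without 0.3 g/l replicate 3 and 52 without 0.3 g/l replicate 4, where 5.98% and 13.6% of all genes were lower.

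Noncoding host genes of small nucleolar RNAs were lower in 8 of 19 cases (42.1%, against 8.52% of all genes) and higher in none (against 7.01%). Several of them, such as Snhg1, Snhg4 and Snhg12, were already counted among the hosts above. Zfas1 read 8.09 to 9.02 at 0.3 g/l and 7.32 to 7.86 at 4.5 g/l, a 2.19-fold fall (limma, adjusted p = 0.00035), and Snhg6 fell 1.71-fold (adjusted p = 0.00089). Snord87 lies within both Snhg6 and Mcmdc2 and was therefore not among the 58 pairs, and it was at 11.5 and 11.4 (difference -0.10 ± 0.08, SE). Of 6 other short noncoding RNAs, among them Rn7sk (13.6 in both groups) and Rpph1 (11.4 and 11.5), none was called in limma and 1 had an unadjusted p under 0.05. For the lists without a higher call, limma gave an unadjusted p under 0.05 in the higher direction for 1 assembly gene, for 2 Y RNA partners and for no box C/D protein, H/ACA protein, processing, polymerase I or noncoding host gene.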

How the data were processed

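RNA of 12 samples, 6 per glucose level, was hybridised to Affymetrix arrays. The deposited log2 values were made by the authors with Affymetrix Expression Console and RMA, per the submitters' processing notes; versions, build and scan dates are not given in the sources used here. The table held 41345 probe sets, of which 23521 name 1 gene. The probe set with the highest mean stood for each of 22180 genes, and values ran from 0.60 to 13.9. The 84 members came from 87 probe sets, and 60 probe sets that name several genes including such an RNA were not used. The number of arrays limits the precision (median SE of a member's difference 0.10).

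Differences were fitted in limma 3.58.1 (R 4.3.3; lmFit and eBayes, two-sided), with p-values adjusted across the whole table after Benjamini and Hochberg and called under 0.05, and the fit was tested on simulated data. Hosts came from containment in the RefSeq gene table (GRCm38.p6). Named members were the 5 with the smallest p per class and direction, the 3 brightest per class, a list of RNAs of known role, and every Rnu and Rny gene; named partners were up to 3 per list and direction. The members and lists were chosen with earlier results of these data known. Replicate numbers did not pair the samples and were not used as a block. Alternatives covered normalization, moderation, dim genes, probe sets, array weights, blocks, number ranges and single arrays left out. Sequences of the small RNAs are not used here.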

Additional observations from a re-analysis of the deposited data

Results flagged for a closer look

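Among 108 groups of 6 arrays tested for a single distant array, 2 for each named gene, 15 were picked out, where chance picks about 1 in 20. None was among the 23 small RNA genes tested, and the other members were not tested in this way. Of the 15, 12 were 0.3 g/l replicate 4, lower than the other arrays of its group in host and partner genes. That array read 6.83 in Snhg12, against 7.90 to 8.46 in the others, 10.4 in 2410006H16Rik, against 11.1 to 11.3, and 8.55 in Gnl3, against 9.67 to 9.96. It read 8.09 in Zfas1 and 9.38 in Snhg6, 2 noncoding hosts, and 9.98 in Ncl. Among genes for particle proteins and assembly it read 7.26 in Nhp2, 7.22 in Nufip1 and 7.62 in Nolc1. Among processing and polymerase I genes it read 9.56 in Imp3, 8.63 in Imp4 and 7.96 in Polr1a. The remaining distant arrays were 0.3 g/l replicate 2 in Polr1c (8.69, above the others), 0.3 g/l replicate 1 in Rpl3 (10.00, below the others, at 10.2) and 4.5 g/l replicate 2 in Lsm4 (8.59, above the others).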

How the results depend on the processing

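Replicate numbers are shared by the groups, but samples with the same number did not deviate together (correlations from -0.05 to 0.17), so the replicate block is given only here: it left 4 members lower. Replicates 4 to 6 alone gave 0 for members lower, members higher, hosts lower, hosts higher, partners lower, partners higher and pairs whose ratio rose, with a box C/D median of -0.24. In the same arrays without 0.3 g/l replicate 4, an alternative chosen after seeing the data, 14 members were lower, 2 were higher and the box C/D median was -0.31. Replicates 1 to 3 alone gave 0 members lower, a box C/D median of -0.0094 and 24 pairs whose ratio rose. With 1 array left out, members lower ran from 1 to 11, members higher from 0 to 4, hosts lower from 18 to 20, hosts higher from 1 to 3, partners lower from 26 to 52, partners higher from 0 to 3 and pairs whose ratio rose from 13 to 24, while the box C/D median ran from -0.15 to -0.10 and the H/ACA median from -0.03 to 0.05. With 1 array left out, the share of all genes called lower ran from 5.87% to 13.6%. The 1 partner called higher became 3 with a variance trend, without the dimmest 25% of genes or with array weights, 4 with cyclic loess or quantile normalization, 2 with the number range as a block and 0 with median centring. Among single named genes, 1195 recomputed values kept their side of the threshold, 141 lost the call and 12 gained it. No gene called in either fit changed direction, but some uncalled ones did. Snora21, for example, was at 0.02 over 12 arrays and at -0.01 without 0.3 g/l replicate 4. The cause of these changes was not tested.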

Other observations

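MicroRNA genes, another class of short RNA on the same arrays, had 31 genes higher and 7 lower at 4.5 g/l among 483 (7.87% called, against 15.5% of all genes; limma). Their mean deviation per array was -0.11 to 0.07 at 0.3 g/l and -0.02 to 0.15 at 4.5 g/l. The highest 0.3 g/l value was that of replicate 4, and the other 5 arrays of the group lay between -0.11 and -0.05, below every 4.5 g/l array. Among 4 nuclear long noncoding RNAs, Neat1, which builds paraspeckles, rose by 0.40 ± 0.09 (SE; limma, adjusted p = 0.0077), and its groups did not overlap.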
